A study of Sus scrofa with 25 samples.

Results

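Transcripts that hepatocytes are known for, with that of albumin (ALB) in front, were counted in 25 libraries made from pig muscle. They are 32 genes of plasma proteins and liver enzymes, among 25879 gene identifiers analysed. They were chosen from a list of 35 symbols, of which 32 have an identifier in the Ensembl table of pig gene names, under the condition of a count in at least 13 of the 25 libraries. All 32 identifiers met it, 31 of them with a count in all 25 libraries, so that no gene lay just inside or outside the limit. The exception was ITIH1, counted in 24 libraries and at 0 in control replicate 9, where a count of 0 allows up to 0.380 CPM (3 counts of that library). FGA, HP and A1BG have no identifier under these names and were not analysed here. The symbols were listed with earlier results of these data known, and every identifier met the condition. Their presence is therefore a description and carries no test.

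The study asked how vitamin D3 in the feed changes the muscle transcriptome of pigs born to Polish Large White sows and sired by Landrace boars. From day 85 of life the animals ate, for 90 days, isoprotein and isoenergetic feeds that differed in vitamin D3. Feed with 0 IU/kg went to 8 control pigs, 5000 IU/kg to 8 pigs called D5000 and 10000 IU/kg to 9 pigs called D10000. Littermates were spread over the 3 diets, while the litter, the sex and the muscle sampled are not given here. Each pig gave 1 library, and the labels' animal numbers serve as replicate numbers. The libraries hold reads from the 3' ends of mRNA (Lexogen QuantSeq FWD), so a count does not scale with transcript length. Levels are given in CPM, a count scaled to the total gene counts of its library. Of the reads a file lists, 16.3% to 38.1% lay in no annotated gene. How completely each gene's 3' end is annotated was not tested, so orders of level between genes are those of assigned reads.

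Hepatocytes synthesise and secrete most proteins of blood plasma: carriers such as albumin and transferrin, the factors and inhibitors of blood clotting, complement proteins and the inter-alpha-trypsin inhibitors. They also hold the enzymes of the urea cycle and of tyrosine breakdown. In inflammation the liver shifts this output, the acute-phase response, in which albumin and transferrin typically fall while fibrinogen and C3 rise, and in pigs ITIH4 is one of the main proteins that rise. Skeletal muscle fibres are not known as a source of most of these proteins, although C3 and CFB are also made by macrophages and other cells, RBP4 by adipocytes and ARG1 by some leukocytes.

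Gene counts ran from 3310507 to 15177976 per library, and 24.9% to 70.6% of the reads a file lists were assigned to genes. This share averaged 58.4% ± 8.76 in control (SD, n = 8), 51.8% ± 12.6 in D5000 (SD, n = 8) and 53.5% ± 13.1 in D10000 (SD, n = 9). The 4 libraries D5000 replicates 11 and 18 and D10000 replicates 2 and 7 had a share under 45%. D10000 replicate 27 stood apart in another way: its adipocyte markers summed to 37023 CPM, against 696 to 2136 CPM in the other 24 libraries, and its skeletal muscle markers to 15330 CPM, against 106844 to 285802 CPM. Results are therefore also given without these 5 libraries, a set chosen after their values were seen. All 5 come from the vitamin D3 diets, and the lowest control share, 45.1% in replicate 23, lay just above the limit. Leaving them out thus trims the D5000 and D10000 groups only.

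The libraries carried the label's tissue: the skeletal actin gene ACTA1 averaged 114417 CPM over the 25 libraries and was the most abundant of 19 skeletal muscle markers with an identifier. D10000 replicate 27 was the exception, with the lowest ACTA1 level, 10029 CPM. Beside the muscle markers, liver transcripts beyond the 32 genes were present as a broad set. Of 154 further liver symbols listed, 126 had an identifier, 120 were counted in at least 13 libraries, and 2 had no count in any library. Among the most abundant were CP (ENSSSCG00000011700), the copper carrier ceruloplasmin, at 1539 ± 1281 CPM (SD, n = 25), and APOA1 (ENSSSCG00000030921), the main protein of high-density lipoprotein, at 753 ± 524 CPM. APOE (ENSSSCG00000003088), a lipoprotein ligand that other tissues also make, averaged 737 ± 556 CPM, and CRP (ENSSSCG00000006403), C-reactive protein, 649 ± 529.6 CPM. HNF4A (ENSSSCG00000007371), a transcription factor of the hepatocyte, was counted in all 25 libraries at 14.6 to 209.1 CPM. Markers of other organs were far lower: summed levels reached 156 CPM for lung epithelium, 11.0 CPM for exocrine pancreas and 6.47 CPM for kidney, where 7 of 11 markers had no count in any library. Intestinal markers summed to 28.5 to 489.8 CPM, most of it APOA4. In bulk tissue, fewer cells of a type and less RNA per cell cannot be told apart.

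Together the 32 genes took 0.556% of the gene counts in the library with the least and 5.51% in the library with the most. The lowest, median and highest summed shares were 0.556%, 1.28% and 3.53% in control, 0.601%, 2.39% and 5.51% in D5000 and 0.654%, 1.45% and 5.37% in D10000 libraries, with means of 1.67% ± 1.08 in control (SD, n = 8), 2.58% ± 1.60 in D5000 (SD, n = 8) and 2.17% ± 1.77 in D10000 (SD, n = 9). The ranges of the diets overlapped, and 4 libraries, D5000 replicates 11 and 18 and D10000 replicates 2 and 7, lay above every control library at 4.11% to 5.51%. These are also the 4 libraries with a share of assigned reads under 45%. The highest value in control was that of replicate 23, in D5000 that of replicate 18 and in D10000 that of replicate 7. Without the 5 libraries that stand apart the means were 1.67% in control, 1.84% in D5000 and 1.46% in D10000. Since that set holds the 4 highest sums and no control library, the lower means in D5000 and D10000 follow in part from its choice. Per all reads listed, in place of gene counts, the means were 0.899% in control, 1.17% in D5000 and 0.978% in D10000. The sums without ALB ran from 0.401% to 4.06% of gene counts.

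**Figure D1:**
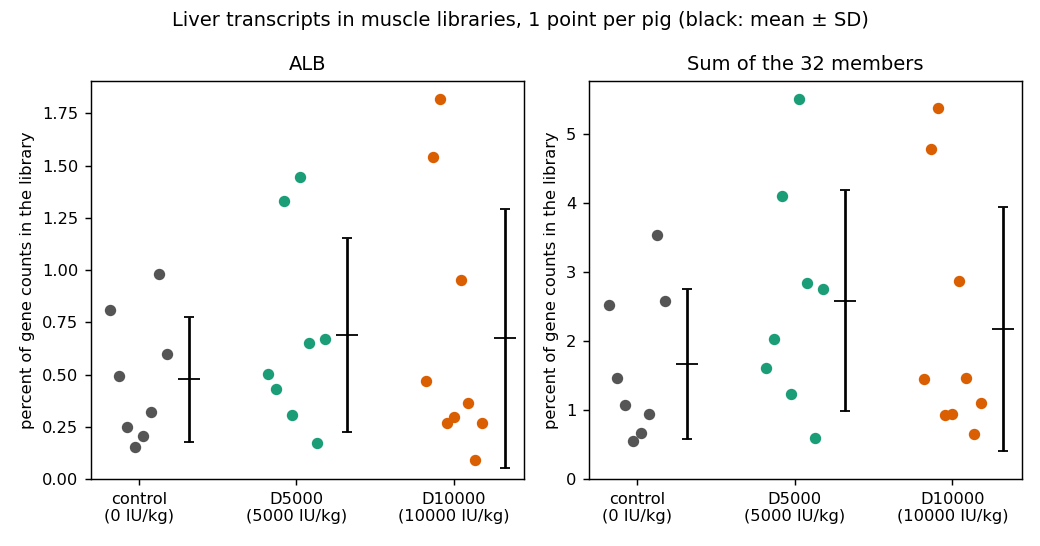
ALB (left) and the sum of the 32 genes (right) as a percent of the gene counts of each library, 1 point per pig, by diet from 0 to 10000 IU/kg, with the mean and SD in black. The 3 diets overlap, ALB spans 0.0934% to 1.82% and the sum 0.556% to 5.51%.

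The carriers and binding proteins of plasma were the largest group, with 9 genes that held 0.316% to 3.50% of gene counts. In the levels that follow, the 3 values per diet are those of the lowest, the median and the highest library. ALB (ENSSSCG00000008948), serum albumin, had 1553, 4091 and 9815 CPM in control, 1752, 5778 and 14467 CPM in D5000 and 934, 3635 and 18158 CPM in D10000 libraries. It ranked between place 3 and place 162 among all genes of a library, with a median place of 27, and its highest CPM, in D10000 replicate 7, was 19.4 times its lowest, in D10000 replicate 27, and 11.7 times the next lowest, in control replicate 14. HPX (ENSSSCG00000014626), which binds free haem, had 362, 929.7 and 3234 CPM in control, 436, 3047 and 5877 CPM in D5000 and 536, 1304 and 4162 CPM in D10000. TF (ENSSSCG00000011640), the iron carrier transferrin, had 432, 949 and 2626 CPM in control, 431, 1549 and 3600.2 CPM in D5000 and 655, 1056 and 4122 CPM in D10000. AHSG (ENSSSCG00000011799), the mineral-binding fetuin-A, had 361, 892 and 2864 CPM in control, 401, 1973 and 3708 CPM in D5000 and 325, 1043 and 3841 CPM in D10000. For these 4 carriers the D5000 median lay above the control median, while the lowest and the highest library of each diet lay several-fold apart. TTR (ENSSSCG00000023686), the carrier of thyroxine and of retinol-binding protein, had 175, 465 and 1221 CPM in control, 208, 985 and 2509.8 CPM in D5000 and 114, 479 and 1964 CPM in D10000. RBP4 (ENSSSCG00000010479), the retinol carrier, had 146, 324 and 798 CPM in control, 142, 531 and 1119.5 CPM in D5000 and 163, 328 and 1342 CPM in D10000, and its lowest D5000 library was replicate 6 where most other genes had theirs in replicate 25. HRG (ENSSSCG00000011801), histidine-rich glycoprotein, had 127, 302 and 783 CPM in control, 132, 524 and 1088 CPM in D5000 and 156, 301 and 1260.1 CPM in D10000. AMBP (ENSSSCG00000005485), the precursor of alpha-1-microglobulin and bikunin, had 55.0, 158 and 378 CPM in control, 76.5, 271 and 995 CPM in D5000 and 68.0, 141 and 616 CPM in D10000. Its control and D10000 medians lay close together. FETUB (ENSSSCG00000011800), fetuin-B, had 16.0, 46.01 and 131 CPM in control, 16.9, 84.1 and 192 CPM in D5000 and 23.5, 47.2 and 233 CPM in D10000. Each of the 9 had overlapping ranges in the 3 diets.

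Clotting factors, fibrinolytic proteins and their inhibitors made up 9 genes that held 0.128% to 1.34% of gene counts. FGB (ENSSSCG00000008997), the fibrinogen beta chain, had 485, 1064 and 3122 CPM in control, 473, 2049 and 5486 CPM in D5000 and 452, 1132 and 4568 CPM in D10000 libraries. FGG (ENSSSCG00000024314), the gamma chain, had 265, 559 and 1617 CPM in control, 273, 884 and 1955 CPM in D5000 and 248, 609.6 and 2355 CPM in D10000. The chains of fibrinogen were the most abundant of this group in the average library. PLG (ENSSSCG00000004038), plasminogen, the precursor of the clot-dissolving protease plasmin, had 143, 359 and 1013 CPM in control, 171, 666 and 1626 CPM in D5000 and 228, 369 and 1311 CPM in D10000. KNG1 (ENSSSCG00000011802), kininogen, the source of bradykinin, had 105, 269 and 698 CPM in control, 130.5, 489 and 1315 CPM in D5000 and 182, 279 and 1185 CPM in D10000. F2 (ENSSSCG00000013252), prothrombin, had 82.3, 237 and 591 CPM in control, 99.3, 481 and 1229 CPM in D5000 and 94.4, 259 and 968 CPM in D10000. F10 (ENSSSCG00000009558), coagulation factor X, had 7.65, 17.2 and 72.0 CPM in control, 5.64, 34.5 and 64.9 CPM in D5000 and 9.17, 16.7 and 74.1 CPM in D10000, the lowest level of the group. In control, replicate 23 was the highest library for each of these genes. SERPINC1 (ENSSSCG00000015493), antithrombin, had 81.8, 190.3 and 655 CPM in control, 101, 404 and 967 CPM in D5000 and 47.8, 223 and 929 CPM in D10000. SERPIND1 (ENSSSCG00000010093), heparin cofactor II, had 15.9, 42.3 and 93.2 CPM in control, 16.1, 76.2 and 179 CPM in D5000 and 16.7, 41.4 and 213 CPM in D10000. VTN (ENSSSCG00000027801), vitronectin, which stabilises a plasminogen activator inhibitor, had 50.6, 122 and 360.0 CPM in control, 58.7, 285 and 752 CPM in D5000 and 74.6, 125 and 595 CPM in D10000. The 3 diets overlapped for each gene of the group.

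The genes of the inter-alpha-trypsin inhibitor heavy chain family were uneven in level. ITIH4 (ENSSSCG00000011453), the acute-phase member in pigs, had 308, 448 and 781 CPM in control, 267, 555 and 773 CPM in D5000 and 244, 488 and 1009 CPM in D10000 libraries and made up most of the reads of the 4 genes. Its 3 highest libraries were D10000 replicate 13, D10000 replicate 2 and control replicate 16, of which replicate 2 was among the highest for ALB and the others among the lower ones. ITIH2 (ENSSSCG00000011128) had 14.6, 55.4 and 121 CPM in control, 32.5, 66.3 and 373 CPM in D5000 and 30.7, 51.9 and 314 CPM in D10000. ITIH1 (ENSSSCG00000011450) had 0, 3.71 and 18.1 CPM in control, 2.13, 6.09 and 31.9 CPM in D5000 and 2.57, 7.30 and 29.9 CPM in D10000. ITIH3 (ENSSSCG00000011451) had 2.34, 4.75 and 20.6 CPM in control, 2.62, 3.99 and 26.3 CPM in D5000 and 0.769, 7.18 and 48.3 CPM in D10000. ITIH1 and ITIH3 rested on few reads, with a median of 58 and 47 counts per library, and ITIH3 had 8 counts in its lowest library.

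Complement was represented by 6 genes. C3 (ENSSSCG00000013551), the central component, had 445, 1071 and 2664 CPM in control, 507, 1993 and 4806 CPM in D5000 and 677, 1133 and 3810.3 CPM in D10000 libraries. CFB (ENSSSCG00000024914), factor B of the alternative pathway, had 59.3, 167 and 615 CPM in control, 72.5, 347 and 602 CPM in D5000 and 109, 199 and 682 CPM in D10000. Components of the lytic complex were lower. C5 (ENSSSCG00000005512), whose larger fragment starts that complex, had 56.7, 129 and 320.3 CPM in control, 52.5, 182 and 421 CPM in D5000 and 81.0, 113 and 468 CPM in D10000. C8B (ENSSSCG00000003834) had 34.6, 77.1 and 211 CPM in control, 36.4, 149.8 and 245 CPM in D5000 and 44.1, 73.8 and 319 CPM in D10000. C8A (ENSSSCG00000003835), the other C8 chain, had 23.6, 69.2 and 177 CPM in control, 28.4, 123 and 265 CPM in D5000 and 41.7, 65.6 and 309 CPM in D10000. C9 (ENSSSCG00000016856), which forms the pore, had 2.60, 7.82 and 25.6 CPM in control, 2.54, 9.54 and 32.8 CPM in D5000 and 3.11, 6.85 and 33.5 CPM in D10000, with a median of 75 counts per library. C8A and C8B had median levels of 83.2 and 82.9 CPM over all libraries.

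The metabolic enzymes were the least abundant group, with 0.00566% to 0.0748% of gene counts. ARG1 (ENSSSCG00000004195), arginase, the last step of the urea cycle, had 25.0, 58.3 and 131 CPM in control, 24.4, 103 and 222 CPM in D5000 and 21.5, 61.8 and 222 CPM in D10000 libraries. CPS1 (ENSSSCG00000016159), the mitochondrial enzyme that opens the cycle, had 13.3, 39.0 and 100.3 CPM in control, 20.4, 54.0 and 217 CPM in D5000 and 20.3, 34.4 and 203 CPM in D10000. Both enzymes of the urea cycle were counted in every library. TAT (ENSSSCG00000002736), tyrosine aminotransferase, had 9.16, 53.5 and 135 CPM in control, 14.4, 70.8 and 213 CPM in D5000 and 9.41, 41.5 and 251 CPM in D10000. HPD (ENSSSCG00000009805), the next enzyme of tyrosine breakdown, had 6.68, 19.7 and 71.7 CPM in control, 5.41, 25.8 and 73.9 CPM in D5000 and 8.20, 17.6 and 95.1 CPM in D10000.

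The same few libraries stood at the ends for most of the 32 genes. In control, replicate 23 was highest for 29 genes, and replicates 14 and 16 were lowest for 17 and 13. In D5000, replicate 18 was highest for 25 and replicate 25 lowest for 30. In D10000, replicates 7 and 2 were highest for 20 and 11, and replicate 27 was lowest for 16. Replicate 23 had the lowest share of assigned reads in control, replicate 18 in D5000 and replicate 2 in D10000, while control replicate 14 and D5000 replicate 25 had the highest of their groups.

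Across libraries, levels of the liver genes were lower where more reads were assigned to genes. The genes were listed with earlier results of these data known. The p-values in this and the following paragraphs are therefore not those of a set chosen beforehand. The median sum of the 32 genes was 47807 CPM in the 5 libraries of lowest share and 6658 CPM in the 5 of highest share. For ALB the log2 CPM and the share had Pearson's r = -0.811 and Spearman's rho = -0.825 over 25 libraries (two-sided permutation tests, p = 1e-05 for both, the smallest that 100000 permutations can give). This 1 relation was computed in several settings, and p was not adjusted over them. Without the 2 libraries farthest from the median share, D10000 replicate 2 and D5000 replicate 18, r was -0.791. Within diets r was -0.917 in control (exact permutation p = 0.00201, n = 8), -0.852 in D5000 (exact permutation p = 0.0034, n = 8) and -0.747 in D10000 (exact permutation p = 0.0208, n = 9). Total gene counts stand in the denominator of CPM and in the numerator of the share, so the 2 measures are tied. With ALB taken over all reads listed, r was -0.628 (permutation p = 0.00071). With CPM and without the 5 libraries that stand apart, r was -0.903.

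**Figure D2:**
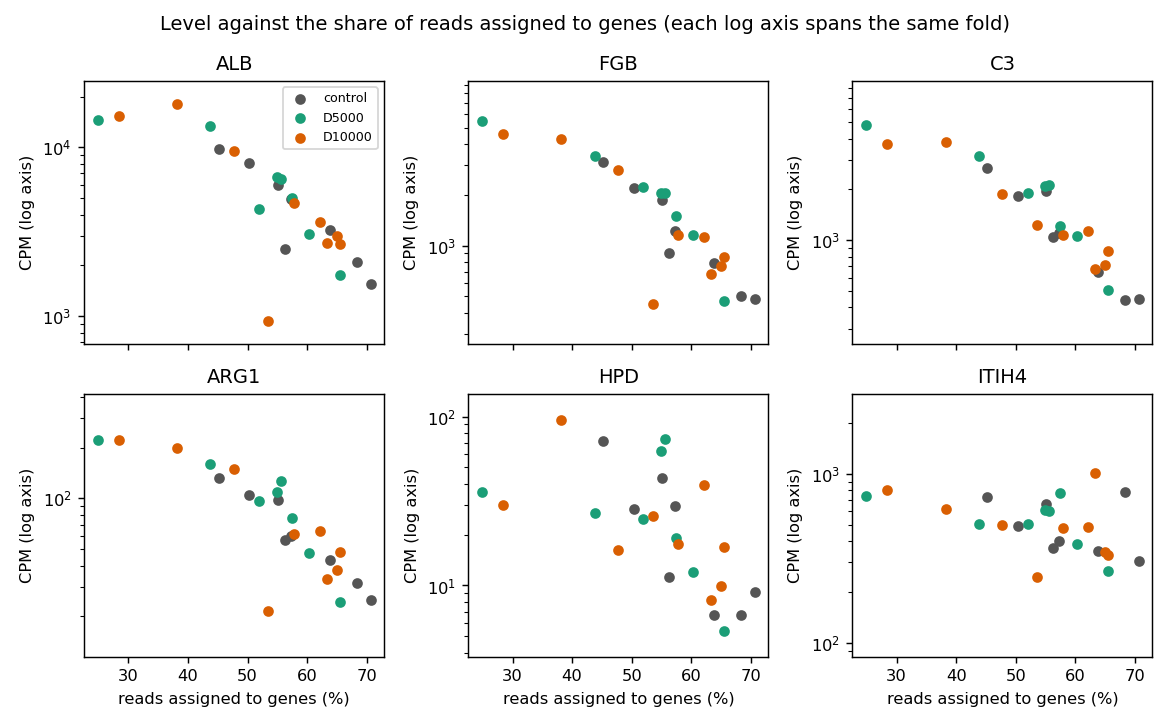
CPM of ALB, FGB, C3, ARG1, HPD and ITIH4 (log axes of equal fold span) against the percent of reads assigned to genes, 1 point per library, coloured by diet. ALB, FGB, C3 and ARG1 are lower at a high share in every diet, HPD scatters more, and the slope of ITIH4 is 0.06 per 10 percentage points on the log2 scale.

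In a fit across all genes with diet and share as terms (edgeR's quasi-likelihood test, Benjamini-Hochberg adjustment over 10992 genes, threshold 0.05), 30 of the 32 genes were lower at a higher share and 0 were higher. Over all tested genes 28.8% passed, 14.9% lower and 13.9% higher. The median slope of the 32 was -0.52 on the log2 scale per 10 percentage points of share, against 0.03 over all genes. DESeq2 called 31 of the 32, all lower, and 3892 of 10992 genes in all, 1972 of them lower. The smallest adjusted p belonged to CPS1 at -0.63 ± 0.08 (SE, adjusted p = 4.19e-06), followed by ITIH2 at -0.66 ± 0.09 (SE, adjusted p = 4.43e-06) and KNG1 at -0.57 ± 0.08 (SE, adjusted p = 1.40e-05). TAT had the steepest slope, -0.68 ± 0.13 (SE, adjusted p = 2.21e-04). ALB had -0.57 ± 0.11 (SE, adjusted p = 2.81e-04), and FGB had -0.58 ± 0.10 (SE, adjusted p = 6.25e-05). Slopes of the other called genes lay between these and that of C8B, at -0.42 ± 0.11 (SE, adjusted p = 0.00479), the shallowest of the called genes.

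By role, all 9 carriers passed with a median slope of -0.52, all 9 clotting genes with -0.55 and all 6 complement genes with -0.48. Of the 4 inter-alpha-trypsin inhibitor genes 3 passed, and of the 4 enzymes 3 did. ITIH4 did not, at 0.06 ± 0.09 (SE, adjusted p = 0.672), and neither did HPD, at -0.37 ± 0.18 (SE, adjusted p = 0.13). ITIH4 is the member with the narrowest range, 244 to 1009 CPM. Its slope turned to -0.17 (adjusted p = 0.189) when gene totals replaced the TMM factors, and HPD passed under that scaling (adjusted p = 0.00901), with DESeq2 (0.0445) and without D10000 replicate 26 (0.0432). ITIH3 did not pass without D10000 replicate 7 (adjusted p = 0.0616). F10 did not pass with all reads listed as library size (adjusted p = 0.0595), where 29 of 32 passed. There 2766 of 10992 genes passed in all, 1094 of them lower. Adjusted p-values over the alternatives ran from 0.189 to 0.992 for ITIH4, from 0.00901 to 0.393 for HPD, from 0.000664 to 0.119 for ITIH3 and from 0.000269 to 0.0595 for F10.

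Scaling moved all genes together. With gene totals and no further factor the median slope of all genes was -0.21 in place of 0.03, 254 genes passed as higher and 3353 as lower, and 31 of the 32 passed with a median of -0.77. The median of the 32 lay under that of all genes with either scaling, while ITIH4 lay above it with both. Without the 5 libraries that stand apart, 1151 genes passed in all, 417 higher and 734 lower, and 27 of the 32 passed with a median slope of -0.78. ITIH1, ITIH3 and C9 no longer passed there (adjusted p = 0.162, 0.119 and 0.0584); their slopes of -0.69, -0.70 and -0.65 were no shallower than with all libraries.

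**Figure D3:**
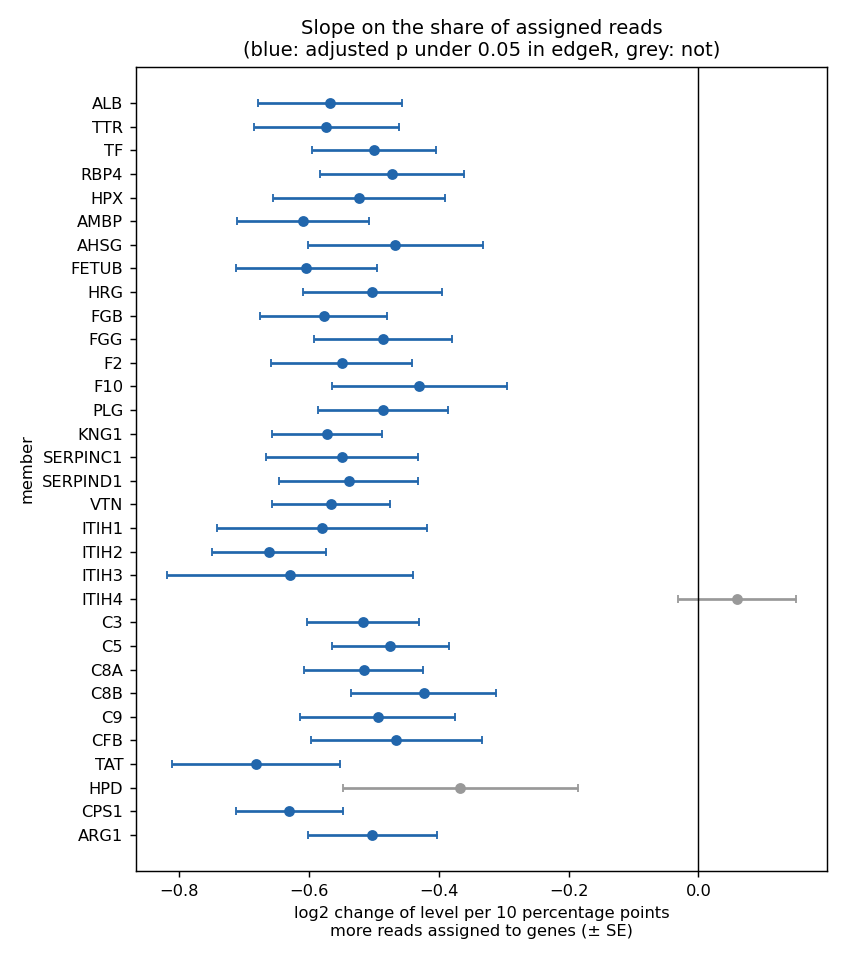
Slope of each of the 32 genes on the share of assigned reads (log2 change of level per 10 percentage points, ± SE, n = 25 libraries); blue points passed an adjusted p of 0.05, grey ones did not. Slopes run from -0.68 for TAT to 0.06 for ITIH4, and ITIH4 and HPD are the grey points.

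The further liver genes moved with the share in the same direction: 90 of 114 tested passed as lower and 0 as higher, with a median slope of -0.49. The 90 comprised 42 of 53 enzymes and carriers, 31 of 41 secreted proteins, 6 of 8 apolipoproteins and 11 of 12 transcription factors. CP had a slope of -0.60 ± 0.09 (SE, adjusted p = 1.07e-05), F5 (ENSSSCG00000006289), coagulation factor V, -0.62 ± 0.08 (adjusted p = 3.75e-06), and G6PC1 (ENSSSCG00000036449), the glucose-releasing phosphatase of liver, -0.56 ± 0.07 (adjusted p = 4.19e-06). The 10 genes with the smallest p also included CRP, the bile salt exporter ABCB11 (ENSSSCG00000015926), the bilirubin exporter ABCC2 (ENSSSCG00000010543), the fibrinolysis inhibitor CPB2 (ENSSSCG00000009413) and the transcription factor ONECUT1 (ENSSSCG00000004616). HNF4A also passed, at -0.53 ± 0.10 (adjusted p = 1.80e-04). Of 19 skeletal muscle markers, 10 passed as higher at a higher share and 0 as lower; their summed level had a median of 157988 CPM in the 5 libraries of lowest share and 227787 CPM in the 5 of highest. Of 12 macrophage and Kupffer cell markers 3 passed as lower, of 15 adipocyte markers 2, of 4 red blood cell markers 1 and of 2 intestinal markers 1. Over all tested genes 14.9% passed as lower and 13.9% as higher. The adipocyte list shares PCK1 with the liver enzymes, and 11 of its 15 slopes lay above 0, with a median of 0.20. Of 8 endothelial markers 1 passed as higher, and no fibroblast, lung or pancreas marker passed in edgeR. The red blood cell markers summed to 206 to 2312 CPM, highest in D5000 replicate 18, with HBB as the most abundant. The part of these cell types in the slopes was not tested.

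Set against ALB in the same library, most liver genes varied less than in CPM. The SD of the log2 ratio to ALB over libraries had a median of 0.468 over the 31 other genes (0.409 without D10000 replicate 27), and each of the 31 lay under the SD of log2 CPM of ALB, 1.11. ITIH4 was the exception, with an SD of 0.543 in log2 CPM and of 0.899 in the log2 ratio to ALB. Ratios do not depend on the scaling of a library, but all share the ALB count. Below, a ratio is given as reads per 100 ALB reads, and intervals are Clopper-Pearson at 95%, which cover counting error only since the labels name no molecular identifiers for the reads.

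FGG followed ALB most closely, with an SD of 0.283: it had 8.90 reads per 100 ALB reads in D5000 replicate 6 (interval 8.52 to 9.28) and 26.6 in D10000 replicate 27 (25.5 to 27.6), with a median of 14.7. ARG1 came next with an SD of 0.294, and had 1.09 reads per 100 ALB reads in D10000 replicate 7 (interval 1.03 to 1.16) and 2.31 in D10000 replicate 27 (2.04 to 2.60), with a median of 1.53. FGB, with an SD of 0.298, had 23.5 reads per 100 ALB reads in D10000 replicate 7 (interval 23.1 to 23.8) and 51.8 in D5000 replicate 6 (50.7 to 52.8), with a median of 29.7. TTR followed with an SD of 0.305 and SERPINC1 with 0.316. Without D10000 replicate 27 FGG stayed first, at 0.228, followed by TF at 0.252, C5 at 0.256, FGB at 0.267 and ARG1 at 0.272. At the other end stood 3 genes counted in all 25 libraries. ITIH3, with an SD of 1.04, had 0.0255 reads per 100 ALB reads in D5000 replicate 18 (interval 0.0146 to 0.0415) and 0.800 in D10000 replicate 27 (0.647 to 0.977), with a median of 0.150. HPD, with an SD of 0.939, had 0.169 reads per 100 ALB reads in D10000 replicate 21 (interval 0.138 to 0.205) and 2.77 in D10000 replicate 27 (2.48 to 3.09), with a median of 0.395. ITIH4, with an SD of 0.899, had 3.40 reads per 100 ALB reads in D10000 replicate 7 (interval 3.29 to 3.52) and 37.5 in control replicate 16 (36.6 to 38.4), with a median of 11.1. Without D10000 replicate 27 the highest ratio was 0.273 for ITIH3 and 1.13 for HPD. ITIH1, with an SD of 0.816 over the 24 libraries where it was counted, had 0 reads in control replicate 9 (upper bound 0.00945 per 100 ALB reads) and a median of 0.133.

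Ratios moved together in single libraries. In D10000 replicate 27, where ALB had its lowest level (934 CPM), 29 of 31 ratios lay above their medians and 22 were the highest of all 25 libraries. C3 stood at 132 reads per 100 ALB reads there, against at most 44.2 in the other 24 libraries, TF at 74.8 against at most 34.2, and CPS1 at 3.68 against at most 1.68. SERPINC1 and TAT were the 2 below their medians, at 5.11 and 1.01. That library also had the highest adipocyte, fibroblast, endothelial and macrophage sums (37023, 7342, 854 and 495 CPM), and their part in these ratios was not tested. In D5000 replicate 6, HPX stood at 79.4 reads per 100 ALB reads, AMBP at 11.7 and TTR at 22.01, each the highest of the 25 libraries, while RBP4 at 3.30 and FGG at 8.90 were the lowest of theirs. Carriers thus went in both directions in that library. ITIH4 was highest relative to ALB in control replicate 16, at 37.5, and lowest in D10000 replicate 7, at 3.40. HPD was the gene farthest above its median ratio in 6 libraries, by 0.59 to 2.81 on the log2 scale, C9 in 4 and HPX in 3. ITIH3 was the gene farthest below its median ratio in 5 libraries, at deviations of -2.55 to -0.67. ITIH4 was farthest below in 4 libraries with 28.4% to 50.3% of reads assigned, at deviations of -1.71 to -0.59, and the gene farthest above it in 3 libraries with 63.3% to 70.6% assigned.

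**Figure D4:**
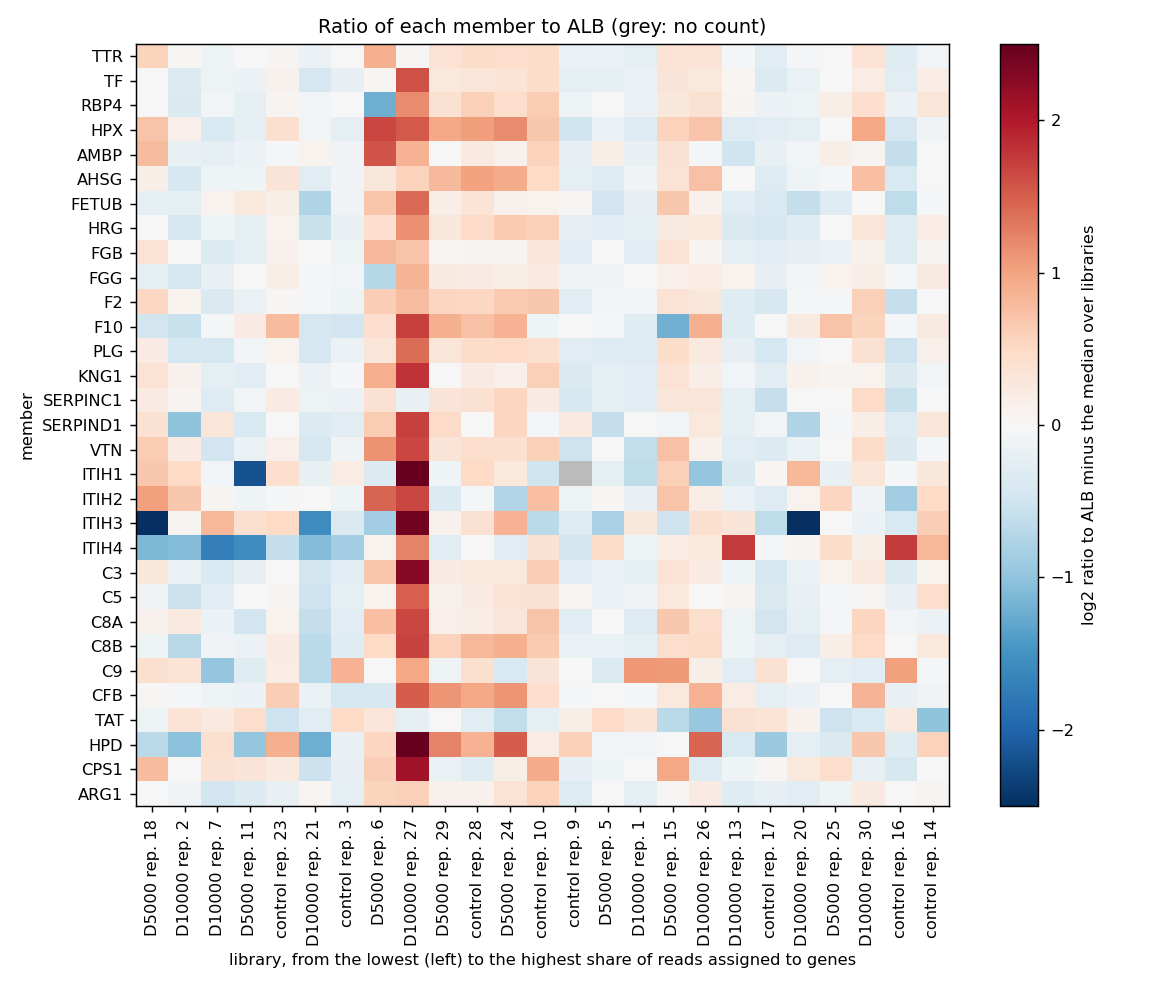
Log2 ratio of each of 31 genes to ALB in the same library, minus its median over libraries (red above, blue below, grey no count), with libraries in columns from the lowest to the highest share of assigned reads. The column of D10000 replicate 27 is red for 29 of 31 genes, and the rows of ITIH3, HPD and ITIH4 are the most uneven (SD 1.04, 0.939 and 0.899).

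Several of these genes lie side by side in the genome. In the RefSeq annotation of the assembly Sscrofa11.1, used here for the order of genes only, 12 listed symbols fall in 4 clusters: AHSG, FETUB, HRG and KNG1; FGB, FGA and FGG; ITIH1, ITIH3 and ITIH4; and C8A and C8B. ITIH1, ITIH3 and ITIH4 had SDs of the log2 ratio to ALB of 0.816, 1.04 and 0.899, while FGB and FGG had 0.298 and 0.283, and HRG, AHSG, KNG1 and FETUB 0.412 to 0.468. ITIH4 had a slope of 0.06 on the share, and its neighbours ITIH1 and ITIH3 had -0.58 and -0.63; the difference was not tested.

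Between diets, 0 of the 32 genes passed the threshold. With edgeR, 0 of 10992 genes passed in D5000 against control (0% called), and 372 had an unadjusted p under 0.05, among them AMBP and CPS1 of the 32. DESeq2 also called 0, with 510 at an unadjusted p under 0.05, 5 of them among the 32. In edgeR, 0 of the 32 and 339 of 11155 genes had such a p without D5000 replicate 6. Without D5000 replicate 25 it was 7 of the 32 and 494 of 11135 genes. All 32 log2 fold changes were above 0, with a median of 0.52 against 0.01 over all genes. AMBP stood at 0.87 ± 0.41 (SE, n = 8 per diet, adjusted p = 0.999), HPX at 0.87 ± 0.45, ITIH2 at 0.86 ± 0.42 and CPS1 at 0.80 ± 0.39, while ALB stood at 0.44 ± 0.43 and ITIH4 at 0.01 ± 0.28. ALB stood at 0.27 without D5000 replicate 11 and at 0.091 without the 5 libraries that stand apart. Since the 32 genes vary together over libraries, their signs are not separate observations. Without those 5 libraries the median was 0.33, and 31 of 32 lay above 0. The share of assigned reads averaged 51.8% in D5000 and 58.4% in control, and its part in these values was not tested.

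In D10000 against control, 0 of 10992 genes passed in edgeR and 0 in DESeq2 (0% called; 263 and 339 at an unadjusted p under 0.05, 0 of them among the 32). The median of the 32 was 0.20 against 0.07 over all genes, with 29 above 0. ITIH2 stood at 0.52 ± 0.41 (SE, n = 9 and 8, adjusted p = 1.00), ALB at 0.32 ± 0.42, HPX at 0.14 ± 0.43 and C9 at -0.16 ± 0.41. The sign rested on few libraries: without D10000 replicate 7 the median was 0.0015 and 16 lay above 0, without D10000 replicate 2 it was 0.07 with 23 above 0, and without the 5 libraries that stand apart it was -0.13 with 3 above 0. That set of 5 includes the highest sums of the vitamin D3 diets and no control library, so the last values follow in part from its choice. The share of assigned reads averaged 53.5% in D10000 and 58.4% in control, and its part was not tested. With gene totals in place of TMM the median of all genes was 0.24 and that of the 32 was 0.38. In D10000 against D5000, 0 genes passed in edgeR and 0 in DESeq2 (0% called; 323 and 393 at an unadjusted p under 0.05, 0 of them among the 32). The median was -0.37 against 0.04 over all genes, and 2 of 32, ITIH1 and ITIH3, lay above 0. HPX stood at -0.73 ± 0.43, AMBP at -0.66 ± 0.40 and ALB at -0.11 ± 0.41 (SE, n = 9 and 8). Leaving out single libraries moved that median between -0.56 and -0.23. With D10000 replicate 7 left out, 4 of the 32 and 441 of 10925 genes had an unadjusted p under 0.05. There the median was -0.56, with 0 of 32 above 0, and it was -0.23 without D5000 replicate 18. Without the 5 libraries it was -0.45, with 0 above 0. ALB turned to 0.011 without D5000 replicate 18, to 0.042 without D10000 replicate 27 and to 0.054 without D5000 replicate 11. The contrasts share samples, so their values are not independent of each other. The diets overlapped in CPM for each of the 32 genes in all 3 contrasts; over the 11841 genes counted in at least 13 libraries, 1 (0.00845%) did not overlap between D10000 and control and 0% in the other contrasts.

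**Figure D5:**
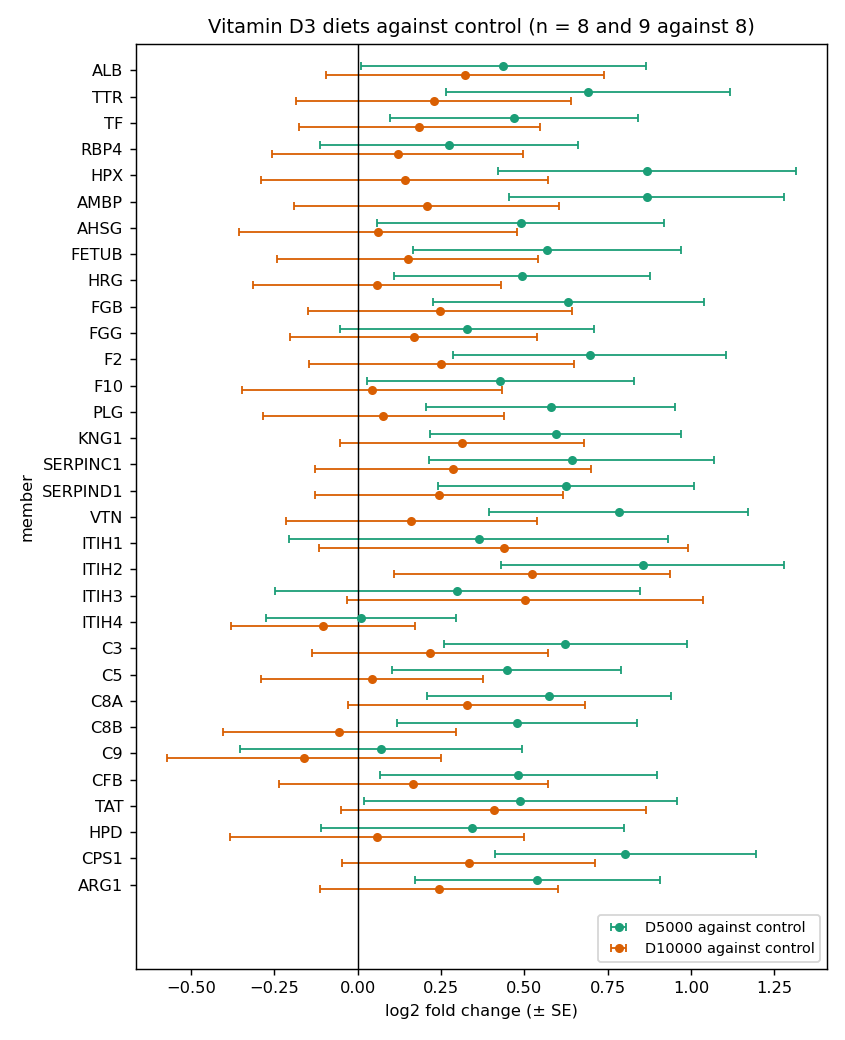
Log2 fold change (± SE) of each of the 32 genes in D5000 (8 pigs) and D10000 (9 pigs) against the same 8 control pigs. In D5000 all 32 lie above 0 (median 0.52) and in D10000 29 do (median 0.20), and 0 passed the adjusted threshold in either.

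With the log2 CPM of ALB as a further term, which sets the diets side by side at equal ALB, 0 of 10991 genes passed for either dose in edgeR or DESeq2 (0% called). At an unadjusted p under 0.05 edgeR gave 272 genes in D5000 against control, among them AMBP and VTN, and 211 in D10000 against control, 0 of them among the 31. DESeq2 gave 383 and 346, with 3 and 0 of them among the 31. In D5000 against control the median of the 31 genes was 0.25 against 0.03 over all genes, with 27 above 0. HPX stood at 0.63 ± 0.33 (SE, adjusted p = 1.00), AMBP at 0.55 ± 0.25 and VTN at 0.52 ± 0.25. Without D5000 replicate 6, HPX stood at 0.41 and AMBP at 0.27. There 0 of the 31 and 218 of 11154 genes had an unadjusted p under 0.05. Without control replicate 10 it was 9 of the 31 and 487 of 11122 genes. The median was 0.14 without D5000 replicate 24 and 0.40 without control replicate 28. The medians of the ratio itself for HPX were 22.3 reads per 100 ALB reads in control, 38.8 in D5000 and 23.7 in D10000. For AMBP they were 3.79 in control, 4.42 in D5000 and 3.78 in D10000, with D5000 replicate 6 at 11.7. In D10000 against control the median was -0.04 against 0.01 over all genes, with 9 of 31 above 0, and C9 stood lowest at -0.39 ± 0.30. That count turned on single libraries: 20 lay above 0 without control replicate 10 (median 0.023), 18 without control replicate 28 (0.040), 16 without D10000 replicate 13 (0.038) and 7 without D10000 replicate 26 (-0.14). With DESeq2 or RLE factors 15 lay above 0. With gene totals that median was 0.10 against 0.15 over all genes. C9 had a median of 0.220 reads per 100 ALB reads in control, 0.151 in D5000 and 0.171 in D10000.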

How the data were processed

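The deposited values were raw counts of reads per Ensembl pig gene, 1 file per pig, which the authors did not normalize as far as the files show. FastQC is named by the submitters' processing notes, while aligner, counter and build are not given in the sources used here. In each file 5 summary lines were present and stayed out of library sizes, and 1 spike-in read was not used. Symbols came from an Ensembl name table; 1 of 25880 identifiers was missing from 1 file and was left out. Counts were fitted with edgeR 4.0.16 in R 4.3.3 (filterByExpr with minimum count 10 and total 15, TMM, robust quasi-likelihood fit over 25 libraries, Benjamini-Hochberg adjustment over all 10992 genes) and, as an alternative, DESeq2 1.42.0. The procedure was run on simulated counts of independent genes, with less spread between libraries than here and larger changes than those of the 32 genes. That run does not measure how the procedure performs on these data. The share is gene counts over all reads a file lists, and its slope is per 10 percentage points. Alternatives were RLE factors, gene totals, all reads as library size, no filter, no diet term and leaving out each library. The 32 genes and all lists were chosen with earlier results of these data known. Values by diet go to the 3 most abundant members of each role group, to members past the threshold and to the 3 of largest and of smallest SD of the ratio to ALB; of the further liver genes, the 5 most abundant and the 10 of smallest p among those called are named, except 2 that are not reported here, and HNF4A was added after its values were seen. Each pig gave 1 library, so p-values rest on the spread between libraries of separate pigs. Spread between animals and spread from sampling or library making cannot be told apart. Litter is not given and is not in the fits.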

Additional observations from a re-analysis of the deposited data

Results flagged for a closer look

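Among 192 groups of values within a diet (96 of log2 CPM, 93 of the log2 ratio to ALB and 3 of the summed share), 18 held a library far from the others of its diet; by chance about 1 in 20 groups does. Most of the 18, 16, were ratios to ALB in D10000 replicate 27, which share 1 ALB count and are not separate observations. Relative to the median over libraries, on the log2 scale, that library stood highest in its diet for C3 at 2.28, CPS1 at 2.09 and KNG1 at 1.81. SERPIND1 stood at 1.70, C8B at 1.69, VTN at 1.68, C8A at 1.68 and ITIH2 at 1.67. TF stood at 1.59, C5 at 1.49, FETUB at 1.41, PLG at 1.40 and HRG at 1.15. AMBP stood at 0.88, FGG at 0.86 and FGB at 0.71. In D5000, RBP4 was lowest in replicate 6 at -1.23, and ITIH1 was lowest in replicate 11 at -2.17.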

How the results depend on the processing

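No paired analysis was possible because the replicate numbers are animal numbers that the diets do not share and the labels do not give the litter. The counts of called genes between diets were 0 under each alternative that was run, which is no sign of stability. Counts of the slope on the share over all genes moved by over 1.5 times in 2 settings: 1151 passed without the 5 libraries that stand apart (417 higher, 734 lower, against 3167, 1528 and 1639), and with gene totals 254 passed as higher and 3353 as lower. The first rests on 20 libraries in place of 25, with the lowest share at 45.1% in place of 24.9%. The cause of either change was not tested. In D10000 against control, ALB turned to -0.017, AMBP to -0.080 and HPX to -0.096 without those 5 libraries. Leaving out each library in turn, HPX in D10000 against control ran from -0.030 to 0.44 and ALB in D10000 against D5000 from -0.35 to 0.054. The slope of ITIH4 turned to -0.17 with gene totals. None of these passed a threshold, and the cause was not tested. Leaving out each library gave 29 to 31 of the 32 genes with a slope past the threshold, against 2421 to 3713 of all tested genes. It gave r of ALB with the share between -0.910 and -0.790. ITIH1, ITIH3 and C9 rested on few reads, at medians of 58, 47 and 75 counts per library, and the part of depth in their results was not tested.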

Other observations

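Ranked by the SD of the log2 ratio to ALB over 25 libraries, 7818 tested genes with a count in every library had a median SD of 1.20. The 32 genes and 114 further liver genes were among the 10992 genes tested in all. Of the 20 genes with the smallest SD, 14 were on the liver lists and 5 of them among the 32 genes (FGG, ARG1, FGB, TTR and SERPINC1). These genes were picked by their values, so the ranking is a description without a test. The smallest SD, 0.171, belonged to MBNL3 (ENSSSCG00000012676), a regulator of splicing that was on no list, at a median of 2.52 reads per 100 ALB reads. PCK1 (ENSSSCG00000007507), the gluconeogenic enzyme that was listed with the liver enzymes and with the adipocyte markers, followed at 0.203. MT1X (ENSSSCG00000030300), a metallothionein, stood at 0.221. MSMO1 (ENSSSCG00000008857), an enzyme of cholesterol synthesis, stood at 0.240, TDO2 (ENSSSCG00000008868), which opens tryptophan breakdown in the liver, at 0.250, and APOB (ENSSSCG00000008595), the structural protein of very-low-density lipoprotein, at 0.270. SLC2A2 (ENSSSCG00000020927), the glucose transporter of hepatocytes, stood at 0.303. ITIH4 ranked 1585 and HPD 1826 among the 7818 genes.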
